A study of Homo sapiens with 12 samples.

Results

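The endothelial to hematopoietic transition (EHT) was followed in cells that lack functional GATA2, by comparing 2 RNA-Seq libraries of H1-GATA2-/- hematopoietic progenitor cells (HPCs) with 2 libraries of H1-GATA2-/- hemogenic endothelium (HE). The H1 line is a widely used line of human embryonic stem cells. In the mutant line, which was expanded as a single clone, a PGK-neomycin cassette disrupts both GATA2 alleles. Embryonic stem cells of either genotype were differentiated on a layer of OP9 cells, a mouse bone marrow stromal line. The HEs were sorted from day 8 co-cultures as cells positive for CD34 and CD31 but lacking CD43, and the HPCs from day 9 co-cultures as cells positive for both CD34 and CD43. They are called KO HEs and KO HPCs here, and the matching wild-type H1 libraries (2 of each) are called WT HEs and WT HPCs. All of these groups share the OP9 co-culture, and the labels name no further agent. The statistical fit also held 2 libraries of undifferentiated H1-GATA2-/- embryonic stem cells, whose values are not described here. Stage and day of co-culture change together and cannot be told apart. The genes described are the 17426 of 56266 listed genes that had a TPM (a transcript level scaled for gene length and for the total of its library) of at least 1 in at least 2 of the 4 KO libraries. Just inside that limit lay 429 genes whose second highest TPM was under 1.1, and just outside lay 385 genes at 0.9 or more. Of the genes described, 798 were under 1 in both HE libraries and 563 were under 1 in both HPC libraries.

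In the embryo, blood stem and progenitor cells arise from endothelial cells that take on a hematopoietic programme, round up and leave the vessel wall. RUNX1 is the transcription factor most closely tied to this step, and SPI1 (PU.1), GATA1, GFI1 and GFI1B act with it or after it. GATA2 is a zinc finger factor of the same family as GATA1 and is expressed in hemogenic endothelium and in blood progenitors.

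The upstream sequences of 8 genes are shown because the results turn on these genes and the RefSeq table holds a single window for each. ALAS2, GYPE, GATA1, ITGA2B and HDC rose in KO HPCs, and KDR, PLVAP and TIE1 fell. Each line holds the 250 bases before the start site, 5′ to 3′, from RefSeq on GRCh38.p14. Capitals mark matches on either strand to AGATAA (a form of the GATA motif), TGTGGT (RUNX), GAGGAAGT (PU.1 and other ETS factors), CCGGAAGT (ETS) and CCNCNCCC (KLF). Overlapping matches run together. Other forms of these motifs were not searched and stay in lower case. In the same order as the lines, the windows lie at chrX:55030978-55031227 (minus strand), chr4:143905560-143905809 (minus strand), chrX:48786340-48786589 (plus strand), chr17:44389650-44389899 (minus strand), chr15:50265727-50265976 (minus strand), chr4:55125596-55125845 (minus strand), chr19:17377343-17377592 (minus strand) and chr1:43300732-43300981 (plus strand).
ALAS2: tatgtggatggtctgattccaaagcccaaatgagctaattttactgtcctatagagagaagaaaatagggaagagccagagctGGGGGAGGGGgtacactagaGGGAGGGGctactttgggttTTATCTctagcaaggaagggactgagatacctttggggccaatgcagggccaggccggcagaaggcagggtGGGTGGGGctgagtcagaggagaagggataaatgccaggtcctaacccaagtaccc
GYPE: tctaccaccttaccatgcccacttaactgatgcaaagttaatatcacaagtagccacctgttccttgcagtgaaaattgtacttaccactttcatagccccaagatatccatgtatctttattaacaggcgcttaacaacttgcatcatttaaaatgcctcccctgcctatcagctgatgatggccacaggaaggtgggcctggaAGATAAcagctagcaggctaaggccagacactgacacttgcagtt
GATA1: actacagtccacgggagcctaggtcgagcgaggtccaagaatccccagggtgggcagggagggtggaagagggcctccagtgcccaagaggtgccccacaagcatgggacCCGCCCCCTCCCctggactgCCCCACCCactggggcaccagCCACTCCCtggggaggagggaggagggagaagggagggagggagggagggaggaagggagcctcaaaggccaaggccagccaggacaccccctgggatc
ITGA2B: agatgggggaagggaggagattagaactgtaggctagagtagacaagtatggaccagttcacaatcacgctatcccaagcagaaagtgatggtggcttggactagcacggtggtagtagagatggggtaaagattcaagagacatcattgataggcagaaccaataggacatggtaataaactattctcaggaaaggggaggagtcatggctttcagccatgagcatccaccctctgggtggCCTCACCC
HDC: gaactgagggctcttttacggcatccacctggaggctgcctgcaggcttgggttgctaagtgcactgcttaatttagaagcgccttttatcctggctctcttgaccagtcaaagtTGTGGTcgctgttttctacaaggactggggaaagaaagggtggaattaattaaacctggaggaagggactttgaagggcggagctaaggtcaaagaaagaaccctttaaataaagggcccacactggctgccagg
KDR: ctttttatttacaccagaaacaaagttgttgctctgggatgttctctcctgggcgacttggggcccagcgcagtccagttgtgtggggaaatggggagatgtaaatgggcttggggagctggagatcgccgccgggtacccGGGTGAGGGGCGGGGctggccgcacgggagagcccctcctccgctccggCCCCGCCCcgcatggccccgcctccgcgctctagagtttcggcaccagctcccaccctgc
PLVAP: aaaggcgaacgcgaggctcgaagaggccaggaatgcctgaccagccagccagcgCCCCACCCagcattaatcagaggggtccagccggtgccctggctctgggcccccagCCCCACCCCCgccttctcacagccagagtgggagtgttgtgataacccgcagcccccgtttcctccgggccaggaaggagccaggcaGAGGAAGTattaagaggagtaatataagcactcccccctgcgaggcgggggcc
TIE1: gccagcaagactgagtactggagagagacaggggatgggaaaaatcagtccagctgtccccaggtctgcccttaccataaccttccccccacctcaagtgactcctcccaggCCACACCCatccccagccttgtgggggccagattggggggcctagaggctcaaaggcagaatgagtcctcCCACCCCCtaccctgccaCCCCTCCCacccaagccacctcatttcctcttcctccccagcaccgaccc
The ALAS2 window held 1 AGATAA and 4 CCNCNCCC matches, and the GYPE window held 1 AGATAA match. GATA1 had 4 CCNCNCCC matches and no AGATAA in its window, ITGA2B had 1 CCNCNCCC match, and HDC had 1 TGTGGT match. The PLVAP window contained 1 GAGGAAGT and 3 CCNCNCCC matches, and the windows of KDR and TIE1 each contained 3 CCNCNCCC matches. Over all 35116 RefSeq promoter windows, 9.17% held AGATAA, 10.98% TGTGGT, 2.17% GAGGAAGT, 3.42% CCGGAAGT and 53.4% CCNCNCCC. RefSeq windows were matched by symbol for 10100 of the genes described. AGATAA stood in 5.50% of their 14918 windows, in 9.31% of the 1010 windows of genes that rose and in 5.10% of the 1687 windows of genes that fell. The CCGGAAGT string stood in 5.70% of the windows of genes described, in 2.48% of those that rose and in 3.20% of those that fell. Windows with TGTGGT made up 8.55%, 9.11% and 8.36% in the same order, those with GAGGAAGT 2.34%, 3.07% and 2.07%, and those with CCNCNCCC 68.7%, 69.0% and 72.4%. These shares are a description of letters in a window and were not tested.

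The TPM values of the 4 KO libraries summed to between 998299 and 998897, and 16209 to 17335 genes per library reached a TPM of 1. Read depth is unknown, because TPM does not carry it. Across all listed genes, Pearson's r of log2(TPM + 1) was 0.973 between the KO HE libraries, 0.958 between the KO HPC libraries and 0.932 to 0.940 between stages. The labels do not say whether replicates came from separate cultures. The p-values therefore measure only the spread between libraries, shared over the 10 libraries of the fit. GATA2 itself had a TPM of 111 and 94.1 in KO HEs and 112 and 83.8 in KO HPCs, with overlapping groups. Reads of a transcript that encodes no working protein also enter this value, so it does not check the labels. In bulk libraries, fewer cells of a type and less RNA per cell cannot be told apart. Changes are given below as log2 changes, meaning the difference of mean log2(TPM + 1) between KO HPCs and KO HEs with its standard error (SE). A gene is said to have risen or fallen when limma's Benjamini-Hochberg adjusted p, over all 21543 genes tested, was under 0.05.

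The transition changed 2745 of the 17426 genes described (15.8%), of which 1185 rose (6.8%) and 1560 fell (8.95%). Of all 21543 genes tested these were 12.7%, 5.5% and 7.24%. Genes that rose had a median of 5.27 TPM in HEs and 25.1 TPM in HPCs. Those that fell had medians of 40.7 TPM in HEs and 10.2 TPM in HPCs. Over all genes described, the median was 11.6 TPM in HE replicate 1 and 10.3 TPM in HE replicate 2. The HE level is part of the change that defined both groups, so this order follows in part from the selection. The median log2 change was 1.64 among those that rose and −1.71 among those that fell, against 0.05 over all genes described. More than 4-fold changes were seen in 404 genes that rose and 590 that fell, and more than 16-fold changes in 55 and 32. Both HE libraries listed 139 of the genes that rose at 0, and both HPC libraries listed 103 of those that fell at 0. The shares called were 17.7% among 13190 protein-coding genes and 8.52% among 2077 lncRNAs. The spread was shared over the 10 libraries of the fit, undifferentiated KO stem cells included. With only the 8 HE and HPC libraries, 2190 genes were called. With the 4 KO libraries alone no gene passed the threshold and 4694 had an unadjusted p under 0.05, against 5586 in the shared fit. With 1 KO library left out the number of genes called fell to between 1239 (without HE replicate 2) and 1770 (without HPC replicate 1).

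**Figure D1:**
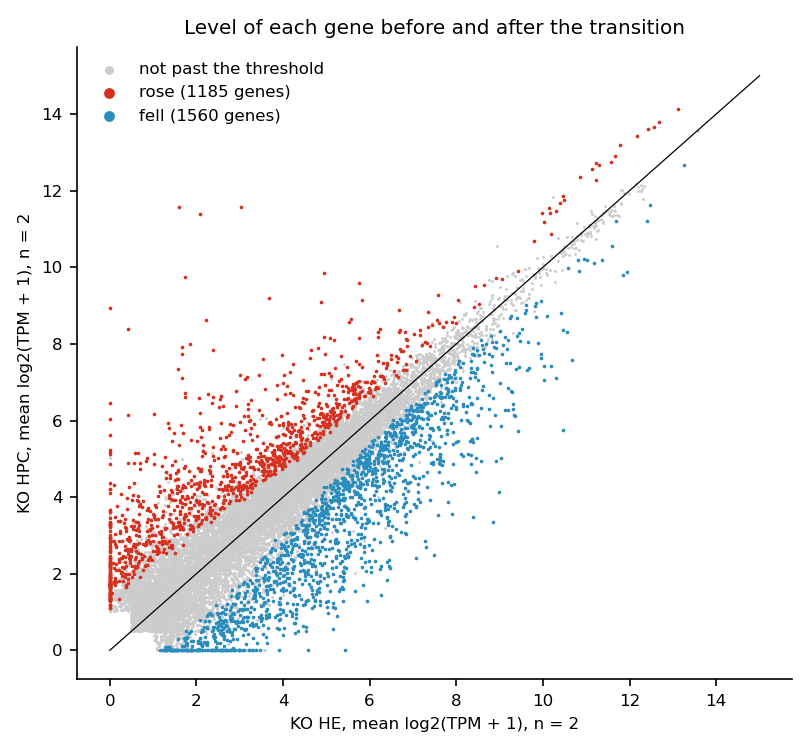
Mean log2(TPM + 1) of each of the 17426 genes in KO HEs (horizontal) and KO HPCs (vertical), each over 2 libraries; red points rose (1185), blue points fell (1560), grey points did not pass the threshold, and the line marks equal levels. Genes that rose lie mostly at the low end of the HE axis (median 5.27 TPM in HEs), a level that is part of the call itself.

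The transcription factors of the transition separated into those that rose from low levels and those already present in HEs. Of 24 described regulators, 11 rose, 4 fell and 9 did not pass, with a median log2 change of 0.87. RUNX1 had a TPM of 44.8 and 19.4 in HEs and 361 and 229 in HPCs. SPI1, the master factor of myeloid fate, had 6.87 and 2.41 TPM in HEs and 81.0 and 118 TPM in HPCs. MYB, which is required for definitive blood, had 6.67 and 3.53 TPM in HEs and 97.7 and 101 TPM in HPCs. For all 3 genes the HPC libraries lay above both HE libraries, a pattern shared by 30.4% of the genes described. The log2 changes were 3.24 (SE 0.48, adjusted p = 0.0030) for RUNX1, 4.25 (SE 0.41, adjusted p = 0.00050) for SPI1 and 4.09 (SE 0.34, adjusted p = 0.00030) for MYB.

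GATA1, the erythroid and megakaryocytic GATA factor, went from 2.78 and 1.37 TPM in KO HEs to 143 and 182 TPM in KO HPCs. This was the largest log2 change of the regulators, 5.76 (SE 0.31, adjusted p = 0.00016). KLF1, an activator of red cell genes, had 4.68 and 0.98 TPM in HEs and 92.9 and 102 TPM in HPCs, and ZFPM1 (FOG1), the GATA cofactor, had 5.76 and 3.98 TPM against 48.0 and 43.9 TPM. In each case the libraries of the stages did not overlap. IKZF1, GFI1B and the LIM domain binding protein LDB1 also rose, with log2 changes of 3.60, 1.68 and 1.21. MEIS1 and ETV6 rose by about 2-fold, with log2 changes of 1.01 and 1.05, and lost their calls without HE replicate 2 (adjusted p = 0.0561 and 0.160).

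The factors TAL1, LMO2, LYL1 and FLI1, which form or join the core complex of blood and endothelial cells, were high in both stages. TAL1 had 261 and 156 TPM in HEs and 253 and 186 TPM in HPCs, a log2 change of 0.10 (SE 0.28, adjusted p = 0.868). FLI1 had 200 and 222 TPM in HEs and 198 and 164 TPM in HPCs. The groups overlapped for TAL1 but not for FLI1, whose log2 change of −0.22 did not pass (adjusted p = 0.458). GFI1, a repressor of the endothelial programme, had 19.9 and 7.58 TPM in HEs and 36.98 and 25.3 TPM in HPCs, and its log2 change of 1.24 did not pass either (SE 0.47, adjusted p = 0.126). ERG, HHEX, GATA3 and HMGA2 fell, with log2 changes from −1.08 to −2.69. ERG, an ETS factor of endothelium and stem cells, fell from 95.0 and 129 TPM to 21.8 and 19.7 TPM. The falls of HHEX and GATA3 lost their calls when a library was left out, with adjusted p up to 0.0722 without HPC replicate 2 and 0.138 without HE replicate 1.

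**Figure D2:**
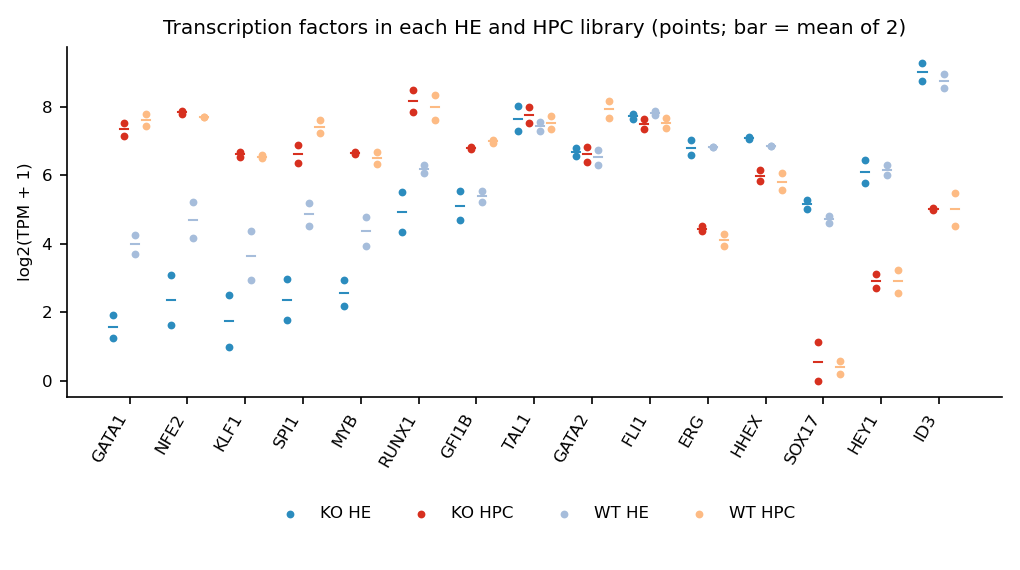
log2(TPM + 1) of 15 transcription factors in every HE and HPC library of both genotypes, with a bar for the mean of each pair. GATA1, NFE2, KLF1, SPI1 and MYB lie low in KO HEs (dark blue) and high in KO HPCs (red), TAL1, GATA2 and FLI1 lie at similar heights in both, and SOX17, HEY1 and ID3 lie lower in HPCs.

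The endothelial programme fell almost as a whole. Of 28 endothelial identity genes, all of them described, 26 fell and none rose, with a median log2 change of −2.57. The exceptions were TAL1 and ETV2, which had 7.47 and 3.65 TPM in HEs and 5.70 and 5.04 TPM in HPCs. The summed level of the list was 9538 and 8849 TPM in the HE libraries and 2265 and 1910 TPM in the HPC libraries. CDH5 (VE-cadherin, the junction protein of endothelium) had 614 and 608 TPM in HEs and 137 and 85.9 TPM in HPCs. KDR, a VEGF receptor, had 879 and 759 TPM in HEs and 209 and 130.3 TPM in HPCs. Both genes were lower in each HPC library than in either HE library, as were 27.4% of the genes described. Their log2 changes were −2.48 (SE 0.38, adjusted p = 0.0035) and −2.30 (SE 0.33, adjusted p = 0.0026). The CDH5 call was lost with a pseudocount of 0.1 (adjusted p = 0.105).

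RAMP2, the partner of the adrenomedullin receptor CALCRL, showed the largest fall of the endothelial list, from 260 and 422 TPM to 8.47 and 12.1 TPM (log2 change −4.90, SE 0.33, adjusted p = 0.00016). SOX17, a factor of arterial and hemogenic endothelium, fell from 38.3 and 31.7 TPM to a listed 0 and 1.19 TPM. Its relatives SOX7 and SOX18 fell as well, with log2 changes of −2.76 and −2.75. PLVAP, a protein of endothelial diaphragms, had 1815 and 1475 TPM in HEs and 209 and 174 TPM in HPCs. VWF, the clotting protein of endothelium and platelets, had 71.8 and 71.9 TPM in HEs and 9.46 and 8.48 TPM in HPCs. Residual levels differed within the list, since TIE1 still had 203 and 224 TPM in HPCs and EGFL7 449 and 448 TPM. With each KO library left out in turn, 21 of the 26 falls kept their call every time. The 5 that did not were CLDN5 (adjusted p up to 0.0872 without HE replicate 2), CALCRL (0.130 without HE replicate 1), and FLT1, SOX7 and MCAM (0.108, 0.0877 and 0.0844 without HPC replicate 2).

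The sorting antigens were measured as well. SPN, which encodes CD43, had 7.48 and 1.76 TPM in HEs and 98.0 and 106 TPM in HPCs. CD43 was part of the gate, so this difference is no finding. CD34, by which both populations were selected, nevertheless fell from 1060 and 925 TPM to 242 and 187 TPM (log2 change −2.21, SE 0.22, adjusted p = 0.00058). PTPRC (CD45) was listed at 0 in both HE libraries and at 0.68 and 3.09 TPM in HPCs, and was not among the genes described. PECAM1 was not analysed here.

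Arterial and venous genes both fell. Of 15 described arterial and Notch genes, 10 fell and none rose (median log2 change −1.92). Of 8 venous and lymphatic genes 5 fell and none rose (median −1.46). The other 3 were the lymphatic genes PROX1, PDPN and LYVE1, which did not pass. These were higher in both HPC libraries than in either HE library, as were 30.4% of the genes described. The Notch ligand DLL4 had 25.2 and 68.5 TPM in HEs and 4.04 and 3.09 TPM in HPCs, a log2 change of −3.23 (SE 0.49, adjusted p = 0.0033). The Notch target HEY1 had 54.0 and 85.9 TPM in HEs and 5.53 and 7.65 TPM in HPCs. HES1, another Notch target, had 74.5 and 98.1 TPM against 103 and 77.3 TPM, with overlapping groups. NR2F2 (COUP-TFII), the factor of venous identity, had 41.4 and 29.0 TPM in HEs and 1.44 and 0.99 TPM in HPCs. FLT4, the receptor of lymphatic growth factors, had 385 and 314 TPM in HEs and 24.7 and 23.6 TPM in HPCs. Their log2 changes were −4.02 (SE 0.41, adjusted p = 0.00059) for NR2F2 and −3.79 (SE 0.32, adjusted p = 0.00031) for FLT4. With single KO libraries left out, NOTCH1, JAG1, JAG2, EFNB2 and CXCR4 lost their calls, with adjusted p up to 0.196 for CXCR4 without HE replicate 2. NRP2 and STAB1 did so too, up to 0.0949 and 0.0899 without HE replicate 1.

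Signalling and matrix genes of the vessel wall moved in the same direction. Of 19 described genes of BMP and TGF-beta signalling, 8 fell and none rose (median log2 change −1.16). ID3, a BMP target that blocks basic helix-loop-helix factors, had 436 and 624 TPM in HEs and 32.4 and 30.6 TPM in HPCs, a log2 change of −4.01 (SE 0.33, adjusted p = 0.00031). ID1 had 357 and 399 TPM in HEs and 69.9 and 89.0 TPM in HPCs, whereas ID2 had 143 and 127 TPM against 222 and 169 TPM and did not pass (adjusted p = 0.439). The receptors ACVRL1 and ENG fell with log2 changes of −3.31 and −2.60, and the ligand BMP4 fell from 33.2 and 22.7 TPM to 0.84 and 3.42 TPM. The calls of BMP4, BMP6 and BMPR1A were lost when single KO libraries were left out (adjusted p up to 0.0637 and 0.0634 without HE replicate 1 and 0.130 without HE replicate 2).

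Of 20 basement membrane and matrix adhesion genes, 14 fell and none rose (median log2 change −1.90). Their summed level was 9574 and 9324 TPM in HEs and 2653 and 2115 TPM in HPCs. COL4A1, a chain of the collagen of basement membranes, had 504 and 544 TPM in HEs and 74.4 and 43.2 TPM in HPCs. FN1 (fibronectin) had 568 and 719 TPM in HEs and 69.3 and 69.3 TPM in HPCs. VIM, the intermediate filament of mesenchymal and endothelial cells, went from 4025 and 3897 TPM to 1029 and 860 TPM. Those falls were −3.18 (SE 0.28), −3.19 (SE 0.32) and −2.07 (SE 0.20) as log2 changes. By contrast COL18A1 had 290 and 201 TPM in HEs and 269 and 253 TPM in HPCs, with overlapping groups. LAMB1, ITGAV, CAV1 and CAVIN1 lost their calls with single KO libraries left out (adjusted p up to 0.0900, for ITGAV without HE replicate 1).

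Mesenchymal and stromal markers were present in the HE libraries. Of 13 described markers, 4 fell (COL3A1, THY1, LUM and COL1A2) and none rose (median log2 change −1.08). The 16 listed markers summed to 1434 and 1216 TPM in KO HEs and to 405 and 222 TPM in KO HPCs, and none was at 0 in all 4 libraries. In WT cells the sums were 1473 and 1258 TPM in HEs and 406 and 189 TPM in HPCs. COL3A1, a fibrillar collagen, had 136 and 131 TPM in HEs and 3.67 and 4.99 TPM in HPCs, and DCN had 0.42 and 0.61 TPM against a listed 0 and 1.42 TPM. THY1 fell from 442 and 532 TPM to 53.2 and 16.2 TPM. LUM and COL1A2 lost their calls with HE replicate 2 or 1 left out (adjusted p = 0.0648 and 0.202). Of the 13 markers, 8 were lower and 2 higher in both HPC libraries than in either HE library. The same held for 27.4% and 30.4% of the genes described. POSTN and PDGFRB, which did not pass, had positive log2 changes. The list's median and sum moved in the same direction as the endothelial and matrix lists. The part of these markers in those falls was not tested.

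The 15 largest falls among the genes that met the rule for named genes also held genes of no list described above. SOST, which encodes the BMP and Wnt antagonist sclerostin, had 564 and 380 TPM in HEs and 11.6 and 7.29 TPM in HPCs. This was the largest of them, with a log2 change of −5.50 (SE 0.49, adjusted p = 0.00039). APLNR, the apelin receptor of mesoderm and endothelium, had 574 and 439 TPM in HEs and 20.5 and 13.6 TPM in HPCs. HAPLN1, a link protein of hyaluronan matrix, had 1415 and 1400.5 TPM in HEs and 75.3 and 36.9 TPM in HPCs. FCN3, ARHGEF15, TBX1, NPR1, C8orf4, GAP43, CDH13 and the read-through gene MSANTD3-TMEFF1 also fell, with log2 changes between −4.34 and −4.99. NDUFA4L2 fell from 226 and 249 TPM to 28.6 and 3.66 TPM, and its call was lost without HE replicate 2 (adjusted p = 0.0965). Its HPC libraries lay far apart, while its HE libraries were close to each other.

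Red cell genes made up most of the largest rises. All 10 globins rose, with a median log2 change of 7.98. HBE1, the embryonic beta-like globin, had 3.39 and 3.13 TPM in HEs and 1598 and 4487 TPM in HPCs. HBZ, the embryonic alpha-like globin, was listed at 0 in both HE libraries and at 276 and 872 TPM in HPCs. HBG2 had 5.50 and 9.23 TPM in HEs and 2155 and 4284 TPM in HPCs, while adult HBB was listed at 0 in both HE libraries and had 4.65 and 9.29 TPM in HPCs. Every globin was higher in HPC replicate 2 than in replicate 1. The log2 changes of HBE1 and HBG2 were 9.30 (SE 0.54) and 8.54 (SE 0.50), each with an adjusted p of 0.00016. HBA1 with HBA2 and HBG1 with HBG2 are near-identical copies, so the division of short reads within each pair is uncertain. COL24A1, a fibrillar collagen gene outside the red cell lists, was among the 15 largest rises as well, from 0.39 and 0.29 TPM to 50.6 and 95.8 TPM. HBB and HBM lost their calls when single KO libraries were left out (adjusted p = 0.0546 without HPC replicate 2 and 0.104 without HE replicate 2).

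Heme synthesis and the red cell membrane followed. Of 11 heme synthesis genes, 7 rose and none fell (median log2 change 1.15). ALAS2, the erythroid enzyme of the first step, had 6.47 and 1.93 TPM in HEs and 419 and 372 TPM in HPCs, a log2 change of 6.40 (SE 0.41, adjusted p = 0.00016). ALAS1, which serves the same step in other tissues, had 29.3 and 26.2 TPM in HEs and 21.5 and 15.9 TPM in HPCs and did not pass (adjusted p = 0.157). UROD and the mitochondrial iron importer SLC25A37 (mitoferrin) rose, with log2 changes of 2.14 and 2.92. PPOX, at 26.9 and 27.2 TPM against 45.4 and 42.5 TPM, lost its call without HE replicate 2 (adjusted p = 0.145).

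Among 15 described red cell membrane genes, 10 rose and 2 fell (median log2 change 2.53). GYPE, a glycophorin gene, had 7.23 and 0.58 TPM in HEs and 258 and 252 TPM in HPCs, a log2 change of 6.15 (SE 0.67, adjusted p = 0.00072). Reads of GYPE are hard to tell from those of other glycophorin genes, of which it is a near copy, so its level is uncertain. ANK1, which ties the membrane to its skeleton, had 0.50 and 0.44 TPM in HEs and 27.4 and 30.3 TPM in HPCs. RHAG and KEL, which carry blood group antigens, had log2 changes of 3.02 and 3.95. SLC4A1 (band 3), a late red cell protein, was listed at 0 in both HE libraries and at 0.38 and 2.76 TPM in HPCs and did not pass (adjusted p = 0.189). GYPC fell from 337 and 313 TPM to 161 and 166 TPM, and ADD2 fell from 13.5 and 14.5 TPM to 3.62 and 5.12 TPM. Of 8 described erythroid factors, 5 rose (GATA1, KLF1, NFE2, GFI1B and BCL11A), with a median log2 change of 2.004. NFE2 had 7.58 and 2.13 TPM in HEs and 235 and 222 TPM in HPCs. BCL11A, the repressor of fetal globin, had 0.19 and 1.13 TPM in HEs and 6.25 and 7.50 TPM in HPCs, and lost its call without HE replicate 1 (adjusted p = 0.162).

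Megakaryocyte and platelet genes rose in 13 of 18 described cases and fell in 2 (median log2 change 2.20). ITGA2B (CD41) had 41.2 and 21.5 TPM in HEs and 736 and 1140.2 TPM in HPCs. Its partner ITGB3 had 3.87 and 1.08 TPM in HEs and 218 and 203 TPM in HPCs. The log2 changes were 4.89 (SE 0.34, adjusted p = 0.00017) and 6.05 (SE 0.39, adjusted p = 0.00016). PF4, a platelet granule chemokine, had 3.66 and 4.70 TPM in HEs and 76.5 and 99.5 TPM in HPCs, and the von Willebrand receptor chain GP1BA had 8.57 and 4.86 TPM against 74.0 and 90.0 TPM. PPBP, another granule chemokine of mature platelets, was listed at 0 in 3 libraries and at 3.15 TPM in HPC replicate 2. The falls were those of VWF and F2R, and F2R lost its call without HPC replicate 2 (adjusted p = 0.0992).

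Myeloid and pan-hematopoietic genes changed in part. Of 22 described adaptors and cytoskeletal genes of blood cells, 8 rose and 1 (TMSB4X) fell, with a median log2 change of 1.06. WAS, an actin regulator of blood cells, had 2.41 and 3.75 TPM in HEs and 29.4 and 62.7 TPM in HPCs, and PLEK, a platelet and leukocyte kinase substrate, had 1.19 and 0.11 TPM against 16.9 and 68.8 TPM. VAV1 and LAPTM5 were already at 55.2 and 45.9 TPM and at 238 and 233 TPM in HEs, and neither passed (adjusted p = 0.448 and 0.0628). CORO1A, LCP1, RAC2, FERMT3 and TMSB4X lost their calls with single KO libraries left out. The highest adjusted p was 0.222, for TMSB4X without HE replicate 2.

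The macrophage list had 5 genes that rose (AIF1, TYROBP, FCER1G, LYZ and CSF1R) and none that fell among 10 described (median log2 change 1.23). AIF1, an actin-binding protein of macrophages, had 13.6 and 17.2 TPM in HEs and 105 and 203 TPM in HPCs. TYROBP, an adaptor of myeloid receptors, had 3.25 and 4.63 TPM in HEs and 35.2 and 83.6 TPM in HPCs. CSF1R, the receptor of macrophage growth factors, had 2.40 and 1.18 TPM in HEs and 9.70 and 27.5 TPM in HPCs, and lost its call without HE replicate 2 (adjusted p = 0.0975). CD14 was listed at 0 in both HPC libraries.

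Granulocyte genes were mostly at or near 0. Only 6 of 15 listed were among the genes described, of which LYZ, SRGN and AZU1 rose. The granule genes ELANE, PRTN3, S100A8 and CAMP were listed at 0 in all 4 KO libraries. MPO was listed at 0 in 3 libraries and at 3.82 TPM in HPC replicate 2. LYZ (lysozyme, shared with macrophages) had 8.63 and 4.37 TPM in HEs and 56.4 and 59.9 TPM in HPCs. SRGN and AZU1 lost their calls without HE replicate 2 (adjusted p = 0.198 and 0.139). CSF3R, the granulocyte colony-stimulating factor receptor, had 6.69 and 1.59 TPM in HEs and 9.89 and 21.1 TPM in HPCs and did not pass (adjusted p = 0.0891). HDC, the histamine-forming enzyme of basophils and mast cells, had 2.20 and 0.30 TPM in HEs and 61.2 and 82.7 TPM in HPCs (log2 change 5.14, SE 0.43, adjusted p = 0.00030). It was the 1 gene of the 4 described in the mast cell, basophil and eosinophil list that rose, and TPSB2 and CLC of that list were at 0 in all 4 libraries.

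Of 11 described cytokine receptors, 4 rose, CSF1R, EPOR and IL6ST among them, and KIT fell. KIT, the stem cell factor receptor, had 45.2 and 40.1 TPM in HEs and 8.48 and 13.7 TPM in HPCs (log2 change −1.88, SE 0.27, adjusted p = 0.0025). EPOR and IL6ST lost their calls without HE replicate 2 (adjusted p = 0.251 and 0.202). FLT3 was listed at 0 in all 4 libraries. Of 5 described lymphoid genes, CD7 and CD2 rose, and CD3D, CD79B and RAG1 did not pass. The median log2 change of the 5 was −0.30. CD7 had 2.51 and 1.11 TPM in HEs and 22.4 and 34.1 TPM in HPCs. The CD2 call was lost without HPC replicate 2 (adjusted p = 0.181), and the CD7 call with a pseudocount of 0.1 (adjusted p = 0.0514).

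**Figure D3:**
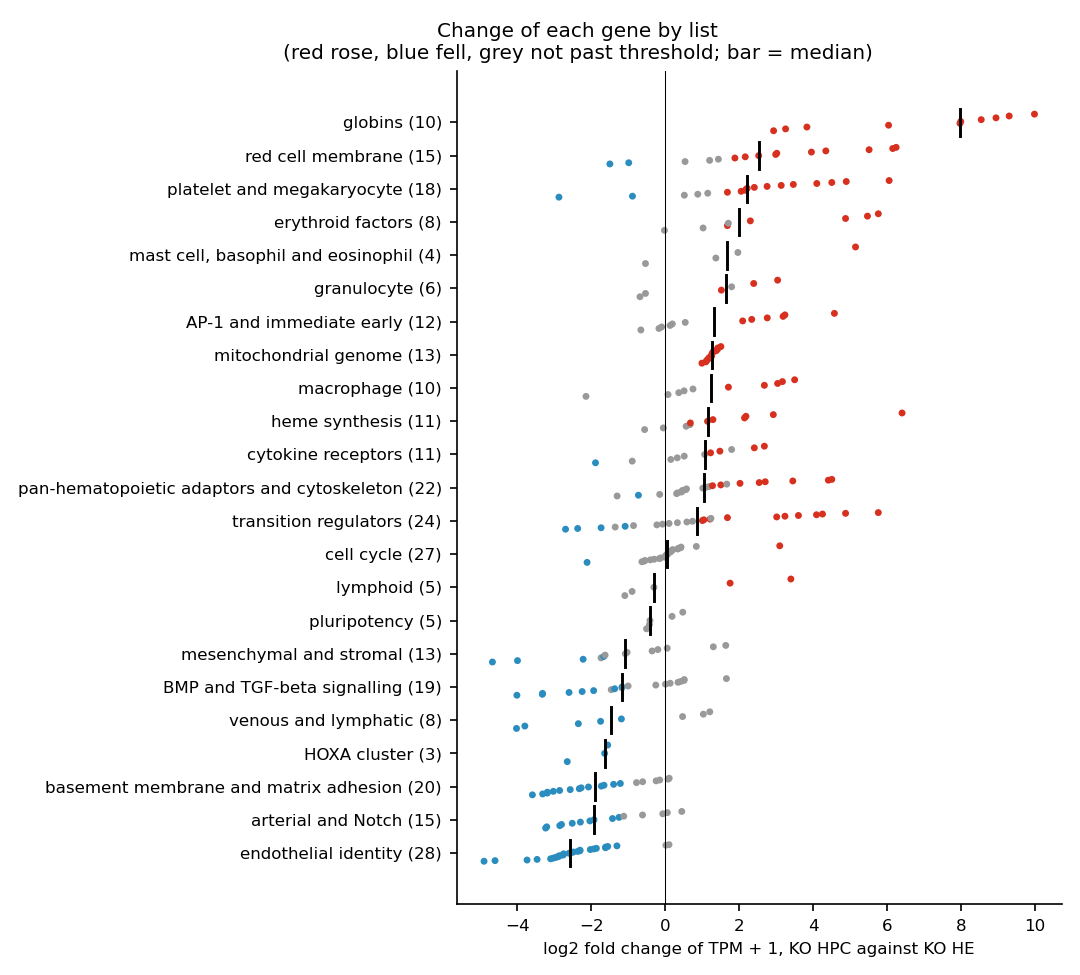
log2 change (KO HPCs against KO HEs) of every described gene in 23 lists, ordered by the list's median (black bar), with the number of genes in brackets; red points rose, blue points fell and grey points did not pass. The globins lie at the top with a median of 7.98 and the endothelial genes at the bottom with a median of −2.57.

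Immediate early genes rose in a split pattern. Of 12 genes of the AP-1 and immediate early list, 6 rose (EGR1, EGR2, EGR3, FOS, FOSB and JUNB) and none fell (median log2 change 1.32). EGR1 had 38.8 and 14.9 TPM in HEs and 217 and 239.9 TPM in HPCs, and FOS had 28.6 and 54.9 TPM against 185 and 227 TPM. JUN had 97.2 and 65.8 TPM in HEs and 43.9 and 57.8 TPM in HPCs and did not pass (adjusted p = 0.344). These genes also respond to the handling of cells, and whether handling differed between the sorts was not tested. All 6 calls were kept with each KO library left out in turn.

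Of 27 cell cycle genes 1 rose and 1 fell, against 15.8% called in either direction over all genes described, and their median log2 change was 0.06. MKI67 had 26.4 and 38.8 TPM in HEs and 41.1 and 25.4 TPM in HPCs, with overlapping groups. The D-type cyclins exchanged places. CCND1 fell from 556 and 338 TPM to 145 and 68.3 TPM, and CCND3 rose from 55.2 and 38.8 TPM to 355 and 459 TPM. The log2 change of CCND3 was 3.10 (SE 0.22, adjusted p = 0.00020) and that of CCND1 was −2.11 (SE 0.49, adjusted p = 0.0245). CCND1 lost its call without HPC replicate 2 (adjusted p = 0.149), whereas CCND2 had 29.2 and 28.2 TPM in HEs and 28.8 and 24.1 TPM in HPCs. Of the HOXA cluster, 3 of 11 genes were described (HOXA9, HOXA10 and HOXA11) and all 3 fell to a TPM of 0.23 or less in both HPC libraries. HOXA9, a factor of self-renewing progenitors, had 5.22 and 5.30 TPM in HEs and was listed at 0 in both HPC libraries. The calls of HOXA10 and HOXA11 were lost without HE replicate 2 (adjusted p = 0.0701 and 0.176). None of the 5 described pluripotency genes passed, and NANOG was listed at 0 in both HPC libraries.

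Several abundant housekeeping and cytoskeletal genes fell as well; these were chosen after their values were seen, as the fallen genes with the highest HE level. The glycolytic enzymes GAPDH and ENO1 had 9341 and 10406.1 TPM and 5243 and 6171 TPM in HEs, and 6353 and 6788 TPM and 3327 and 2981 TPM in HPCs. Both calls were lost with single KO libraries left out (adjusted p up to 0.165 and 0.0654 without HE replicate 2). The actin ACTG1 fell from 5428 and 5444 TPM to 2118 and 2605 TPM, a log2 change of −1.21 (SE 0.16, adjusted p = 0.0019), and TMSB10, TUBA1B and CFL1 fell with log2 changes of −2.04, −1.07 and −0.93. Among protein-coding genes listed at 0 in both HE libraries, LY6G6F rose to 25.8 and 47.3 TPM and FYB to 9.37 and 13.3 TPM. GPR182 and the cardiac factor NKX2-5 were listed at 0 in both HPC libraries after 12.1 and 8.26 TPM and 9.72 and 5.76 TPM in HEs.

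The mitochondrial genome took a larger part of the KO HPC libraries. It made up 6.49% and 6.38% of all TPM in KO HEs and 15.1% and 14.8% in KO HPCs. In WT cells the share was 6.82% and 6.29% in HEs and 8.66% and 9.61% in HPCs, so the KO HPC libraries lay above all others. With 2 libraries a group these shares were not tested. All 13 protein-coding mitochondrial genes rose, with log2 changes between 0.99 and 1.51 and a median of 1.26. MT-CO1, a subunit of cytochrome c oxidase, had 9167 and 8734 TPM in HEs and 17885.9 and 17741.9 TPM in HPCs. MT-CYB, the cytochrome b of complex III, had 2214 and 2285 TPM in HEs and 6441 and 5648 TPM in HPCs. After quantile normalization the 13 log2 changes lay between 0.29 (MT-CO2) and 1.25 (MT-ND6) with a median of 0.87. MT-CO2, MT-CO3 and MT-ATP6 then lost their calls (adjusted p = 0.126, 0.0575 and 0.0643). The 10 globins made up 0.0020% and 0.0021% of TPM in KO HEs and 0.709% and 1.58% in KO HPCs.

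Because TPM sums to a fixed total, these shares lower the values of all other genes in the HPC libraries. When TPM was rescaled without the mitochondrial and globin genes, the median log2 change of the genes described moved from 0.05 to 0.18. The genes called then numbered 1635 that rose and 1340 that fell, so that 55.0% of calls were rises, against 43.2% in the deposited scale. No gene named here as risen or fallen changed sign under that scale or under quantile normalization. Among genes named but not called, GATA2 and LINC00493 changed sign under both, CCND2 under the rescaled values and ETV2 under quantile normalization. GAPDH and TMSB4X lost their calls on the rescaled values. The log2 change of GAPDH was −0.59 as deposited and −0.43 rescaled (adjusted p = 0.107), and that of TMSB4X was −0.72 and −0.57 (adjusted p = 0.0953).

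To see where the transition without GATA2 differed from that of WT cells, the WT change and the difference between both changes were computed in the same fit. WT HPCs against WT HEs changed 2034 of the genes described (11.7%), of which 657 rose (3.77%) and 1377 fell (7.9%). Of the 1185 genes that rose in KO cells, 41.6% (493) also rose in WT cells, and those made up 75.0% of the WT rises. Of the 1560 that fell in KO cells, 67.8% (1057) also fell in WT cells, or 76.8% of the WT falls. A further look at the sign alone showed the same direction in WT cells for 1106 of the genes that rose and 1521 of those that fell. Only Metazoa_SRP, a small non-coding RNA gene near the limit of detection, was called in opposite directions, and its KO call was lost without HE replicate 2 (adjusted p = 0.130). Across the 17426 genes, Pearson's r between the KO and the WT log2 change was 0.731, from libraries that do not overlap; genes are not independent replicates. The number of WT calls depended on single libraries. It was lower with each WT library left out in turn, and least so without WT HPC replicate 1.

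The difference between genotypes was tested as an interaction. At an adjusted p under 0.05, limma called 0 of the 17426 genes, with a smallest adjusted p of 0.265. At an unadjusted p under 0.05 there were 1077 genes (6.18%), of which 768 had a higher change in KO cells (4.41%) and 309 a lower one (1.77%). The values below are therefore descriptions of differences that did not pass the correction.

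Of the 24 described blood regulators, 8 had an unadjusted p under 0.05, 6 of them with a higher change in KO cells. The interaction for GATA1 was 2.14 (SE 0.43, unadjusted p = 0.00088, adjusted p = 0.483). Its WT levels were 18.4 and 12.1 TPM in HEs and 172 and 219.6 TPM in HPCs, against 2.78 and 1.37 TPM and 143 and 182 TPM in KO cells. MYB and SPI1 showed the same layout. MYB had 26.5 and 14.5 TPM in WT HEs and 103 and 80.4 TPM in WT HPCs, and SPI1 had 35.8 and 22.2 TPM and 195 and 151 TPM. For all 3 genes both KO HE libraries lay below both WT HE libraries. In HPCs the genotypes overlapped for GATA1 and MYB, and SPI1 was lower in both KO HPC libraries than in both WT HPC libraries. How many of the genes described separate the genotypes in either stage was not counted, so these orders are not read as particular to the 3 genes. The interactions were 1.94 (SE 0.48, unadjusted p = 0.0031) for MYB and 1.69 (SE 0.59, unadjusted p = 0.0185) for SPI1, with adjusted p of 0.641 and 0.732. GATA2 went the other way, since its WT level rose from 107 and 78.03 TPM to 290.1 and 204 TPM while the KO level overlapped between stages (interaction −1.48, SE 0.50, unadjusted p = 0.0171, adjusted p = 0.719).

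Of the 15 described red cell membrane genes, 7 had an unadjusted p under 0.05. GYPE, whose interaction had an unadjusted p of 0.0085, had 47.7 and 22.6 TPM in WT HEs and 266 and 257 TPM in WT HPCs. ALAS2 had an interaction of 2.51 (unadjusted p = 0.0022), with 22.4 and 13.5 TPM in WT HEs and 241 and 309.8 TPM in WT HPCs. ITGB3, with 2.52 (unadjusted p = 0.0015), had 17.6 and 10.2 TPM and 171 and 161 TPM there. In each of these genes the HE libraries of the genotypes did not overlap. The share of all genes with this order was not counted either, so it is not read as particular to them. None of the 28 endothelial genes had an unadjusted p under 0.05, and their median log2 change was −2.57 in KO and −2.72 in WT cells. The 13 mitochondrial genes all did, with interactions between 0.66 and 0.97 and adjusted p of 0.459 or more.

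Among genes annotated as protein-coding, the 5 smallest unadjusted p for a higher change in KO cells belonged to RPS6KA2, INO80, CRYM, WFS1 and MT-CYB. CRYM, a thyroid hormone binding protein, had 3.21 and 3.19 TPM in KO HEs and 20.3 and 11.03 TPM in WT HEs, and 102 and 87.5 TPM in KO HPCs and 77.7 and 91.5 TPM in WT HPCs. INO80, the ATPase of a chromatin remodelling complex, had 9.51 and 8.40 TPM in KO HEs and 19.9 and 22.5 TPM in KO HPCs. In WT cells INO80 had 18.7 and 15.03 TPM in HEs and 11.3 and 10.95 TPM in HPCs, so the stages were ordered oppositely in the genotypes (interaction 1.71, SE 0.31, unadjusted p = 0.00044, adjusted p = 0.450). WFS1, a protein of the endoplasmic reticulum, fell to 8.49 and 8.47 TPM in KO HPCs and was at 2.68 and 2.47 TPM in WT HPCs. The 5 smallest for a lower change, among the same genes, belonged to VPS51, LINC00493, IMPA2, GINS4 and GRAMD1A. VPS51, a subunit of tethering complexes at the Golgi, had 114 and 124 TPM in KO HEs and 69.4 and 72.1 TPM in KO HPCs, against 90.6 and 111 TPM and 114 and 131 TPM in WT cells. GINS4, a subunit of the replicative helicase, was lower in both KO HPC libraries (16.6 and 12.6 TPM) than in KO HEs (29.1 and 31.1 TPM), with 19.8 and 22.9 TPM and 24.9 and 24.2 TPM in WT cells. Adjusted p for these 10 genes lay between 0.443 and 0.621. Among them, the KO calls of RPS6KA2, INO80, VPS51 and GINS4 were lost without HE replicate 2 (adjusted p = 0.139, 0.0692, 0.0944 and 0.0794).

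**Figure D4:**
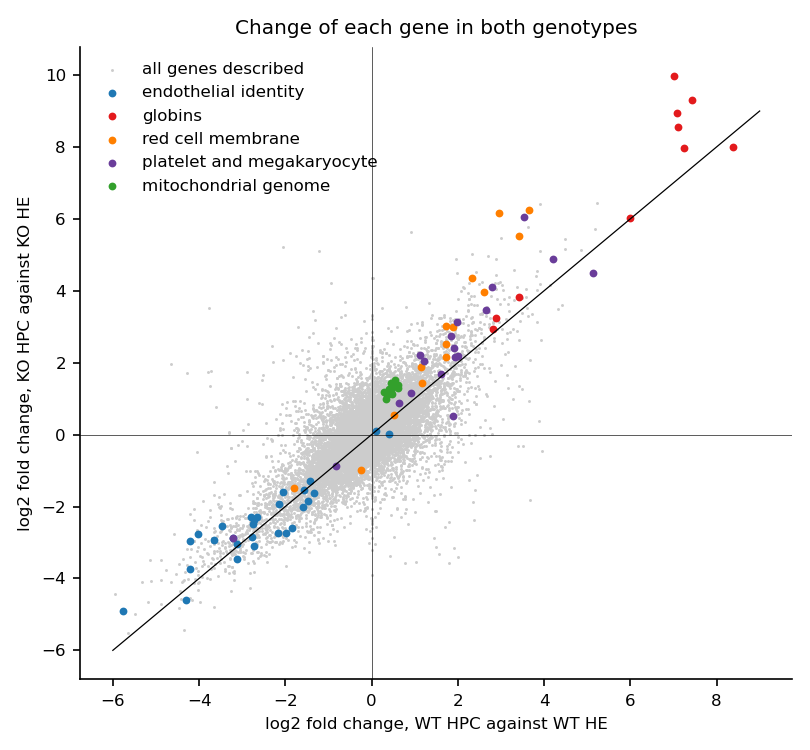
log2 change of each described gene in WT cells (horizontal) and in KO cells (vertical), each from 2 HPC and 2 HE libraries, with the line of equal change; colours mark 5 gene lists. Endothelial genes (blue) lie along the line at the lower left, while most red cell membrane genes (orange) and all 13 mitochondrial genes (green) lie above it, differences that did not pass the adjusted threshold.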

How the data were processed

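RNA-Seq libraries were analysed from the values the authors deposited, 1 table per library with TPM per Ensembl gene. The authors trimmed adapters with Trimmomatic and aligned single-end reads to hg19 with Bowtie. The submitters' processing notes also name RSEM and mm10, without a role. The authors' Cuffdiff comparison was not repeated, since it needs alignments. WT embryonic stem cell libraries were not analysed here.

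TPM was transformed as log2(TPM + 1). The 21543 genes that reached 1 TPM in 2 or more of 10 libraries entered one limma fit (version 3.58.1, R 4.3.3; eBayes with trend) over 5 groups of 2 libraries, with Benjamini-Hochberg adjustment and a threshold of 0.05. The groups were KO HEs, KO HPCs, WT HEs, WT HPCs and undifferentiated KO embryonic stem cells. The interaction was the KO change minus the WT change. The procedure was checked on simulated data with independent noise and large changes in well-expressed genes. That check does not cover small changes, low values or a shared batch. Tables were summarised in Python 3.11.15 with pandas 2.3.3 and numpy 2.4.6.

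Named genes were the 15 largest rises and 15 largest falls with the same sign in all 4 library pairs, protein-coding with at least 200 exonic bases where annotated, the list members, the 5 smallest interaction p in each direction, and GATA2. Sex-linked XIST and Y genes were left out. Genes listed at 0 in one stage, the most abundant fallen genes, the lncRNAs and the gene with opposite calls were chosen after their values were seen. The members and the gene lists were chosen with earlier results of these data known. Lists are described by counts and medians, with no set test.

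Alternatives covered the libraries in the fit, a replicate block, the pseudocount (0.1), filters, normalization, the variance model and each KO library left out. Leaving out each WT library was added after seeing the data. The main fit used no pairing by replicate number. Differences between replicates 1 and 2 correlated at 0.017 between KO HEs and KO HPCs, and whether the numbers pair libraries was not tested. Promoter windows came from RefSeq (GRCh38.p14), a later build than the files use, and were matched by gene symbol. Some list members are not reported here.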

Additional observations from a re-analysis of the deposited data

How the results depend on the processing

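In the fit of only the 4 libraries of a comparison, with 2 residual degrees of freedom, 0 genes passed for KO cells in either direction, 0 for WT cells, and 0 of the 170 list genes called, while 4694 genes had an unadjusted p under 0.05 in KO cells. Leaving out 1 library gave 1239 to 2683 genes changed in KO cells, 466 to 1119 that rose and 773 to 1564 that fell, with the lowest counts without KO HE replicate 2 and the highest without WT HPC replicate 2. The lone library of a group was then assumed to vary like the other groups. The WT count ranged from 820 to 1950 and the interaction from 0 to 2 genes. The other alternatives gave 2128 (no filter) to 3179 (quantile normalization) genes in KO cells, and 0 interactions. With the replicate number as a block 3001 genes passed, 1312 up and 1689 down. Differences between replicates 1 and 2 correlated between stages at 0.017 in KO and 0.032 in WT cells. Whether the numbers pair the libraries was not tested. The column headers of replicate 2 in each HE and HPC group share a number whose meaning is not given in the sources used here, and whether it marks a batch is unknown. Taking the 13 protein-coding mitochondrial genes alone, their mean share of TPM was 4.96% in KO HEs and 11.4% in KO HPCs. Filters, the variance model, the replicate block and the libraries of other groups leave the log2 change itself unmoved. For a gene whose stages did not overlap, a left-out KO library or another pseudocount cannot change its sign. The sign of such genes was open only to quantile normalization and rescaling. No gene named as risen or fallen changed sign under any alternative listed. Among named or listed genes that were not called, 49 did under at least 1, TAL1, GATA2 and MKI67 among them. The causes of these shifts were not tested. Read depth is unknown, so counting error could not be given, and low values are the least certain.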

Other observations

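Long non-coding RNAs were not part of any gene list. Of the 2077 described, 8.52% were called, and those with the largest changes were chosen after their values were seen. BZRAP1-AS1 had 2.19 and 1.08 TPM in KO HEs and 44.4 and 68.9 TPM in KO HPCs (log2 change 4.45, SE 0.34, limma adjusted p = 0.00023). LINC00173 had 0.27 TPM and a listed 0 in HEs and 8.09 and 19.7 TPM in HPCs, and lost its call with single KO libraries left out. AP001625.6 had 0.77 TPM and a listed 0 in HEs and 22.6 and 36.4 TPM in HPCs. All 3 were higher in each HPC library than in either HE library, as were 30.4% of the genes described. They were picked by the size of their change, so this order is no separate result. RP11-319F12.2 had 81.2 and 91.8 TPM in HEs and 7.82 and 1.38 TPM in HPCs. Strand use in the counting is not given in the sources used here, so reads of antisense partners such as BZRAP1-AS1 and its host gene cannot be told apart.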
